A study of Homo sapiens with 4 samples.

Results

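The genes described here encode the machinery with which the endoplasmic reticulum (ER) folds new proteins and sends them on to the Golgi. The rule reads gene names and gene type, and takes protein-coding genes of families such as the PDIA disulfide isomerases, the SEC and SSR translocation proteins, the TMED and LMAN cargo receptors, the COPI coat, the ARF GTPases and the DERL degradation proteins. The rule found 59 genes among the 2897 of the deposited table. By role, 13 fold proteins, 12 move them into the ER, 7 attach glycans, 11 belong to the COPII coat or to cargo receptors, 13 to COPI transport and retrieval, and 3 to ER-associated degradation. Further genes that the rule could name, such as CANX and HYOU1, were not analysed here.

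RNA was sequenced from 2 wild-type human gastric cancer (GC) cell lines, AGS-1 (cell line AGS in the labels, a gastric adenocarcinoma cell) and HGC-27 (a gastric carcinoma cell). Each line gave 1 untreated control library and 1 library of cells kept for 24 h with 50 μM isorhamnetin (ISO), a plant flavonoid. The dose is that of the labels, and the text of the study names a lower dose for the same experiment. The text of the study also speaks of duplicates, and 1 library per condition was analysed here. The comparison asks how ISO changed the transcriptome of each line.

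Proteins bound for secretion carry a signal that the signal recognition particle reads on the ribosome and hands to the SEC61 channel. Inside the ER they are trimmed, glycosylated, given disulfide bonds and folded by chaperones. Correctly folded proteins leave in COPII vesicles, COPI vesicles return ER residents that carry a retrieval signal, and proteins that fail to fold are drawn back to the cytosol for degradation. When folding falls behind, the unfolded protein response raises the transcription of many of these genes. Gastric epithelium is a secretory tissue, whose mucous and chief cells depend on this route.

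The values are FPKM, fragments scaled by the length of the gene and by the size of the library. The libraries held between 15235004 and 20199425 fragments, and the 59 genes took between 1.25% and 1.73% of them, with 272 to 23797 fragments per gene and library. The genes of the table as a whole held 78.5% of all fragments in untreated and 64.4% in treated AGS-1, against 61.0% and 60.0% in HGC-27, and the mRNAs of the mitochondrial genome went from 6.93% to 11.7% in AGS-1 and from 7.14% to 9.55% in HGC-27. Of 5 epithelial markers 4 could be read, and EPCAM, KRT8, KRT18 and KRT19 lay between 167 and 598 FPKM in AGS-1 and between 0 and 2.2 FPKM in HGC-27, where VIM was at 306 and 249 FPKM. The 7 gastric markers set for this check were not analysed here.

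Averaged over the 4 libraries, each of the 59 genes reached 10 FPKM. The median level over the genes was 39.1 FPKM in untreated and 39.1 FPKM in treated AGS-1 and 39.1 FPKM in untreated and 38.5 FPKM in treated HGC-27, and the same median over the 2883 genes tested was 33.8, 26.8, 27.6 and 25.7 FPKM. CALR, the lectin chaperone calreticulin, had the highest mean level, at 452 and 367 FPKM in AGS-1 (control, then ISO) and 378 and 385 FPKM in HGC-27. The levels of the other genes ranged down to 5.94 FPKM for DERL1 in the AGS-1 control. Gene lengths in the table were larger than the longest GENCODE transcript for most genes, with a median ratio of 1.41 and 4.28 for P4HB, which lowers the FPKM of P4HB beside the others.

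**Figure D1:**
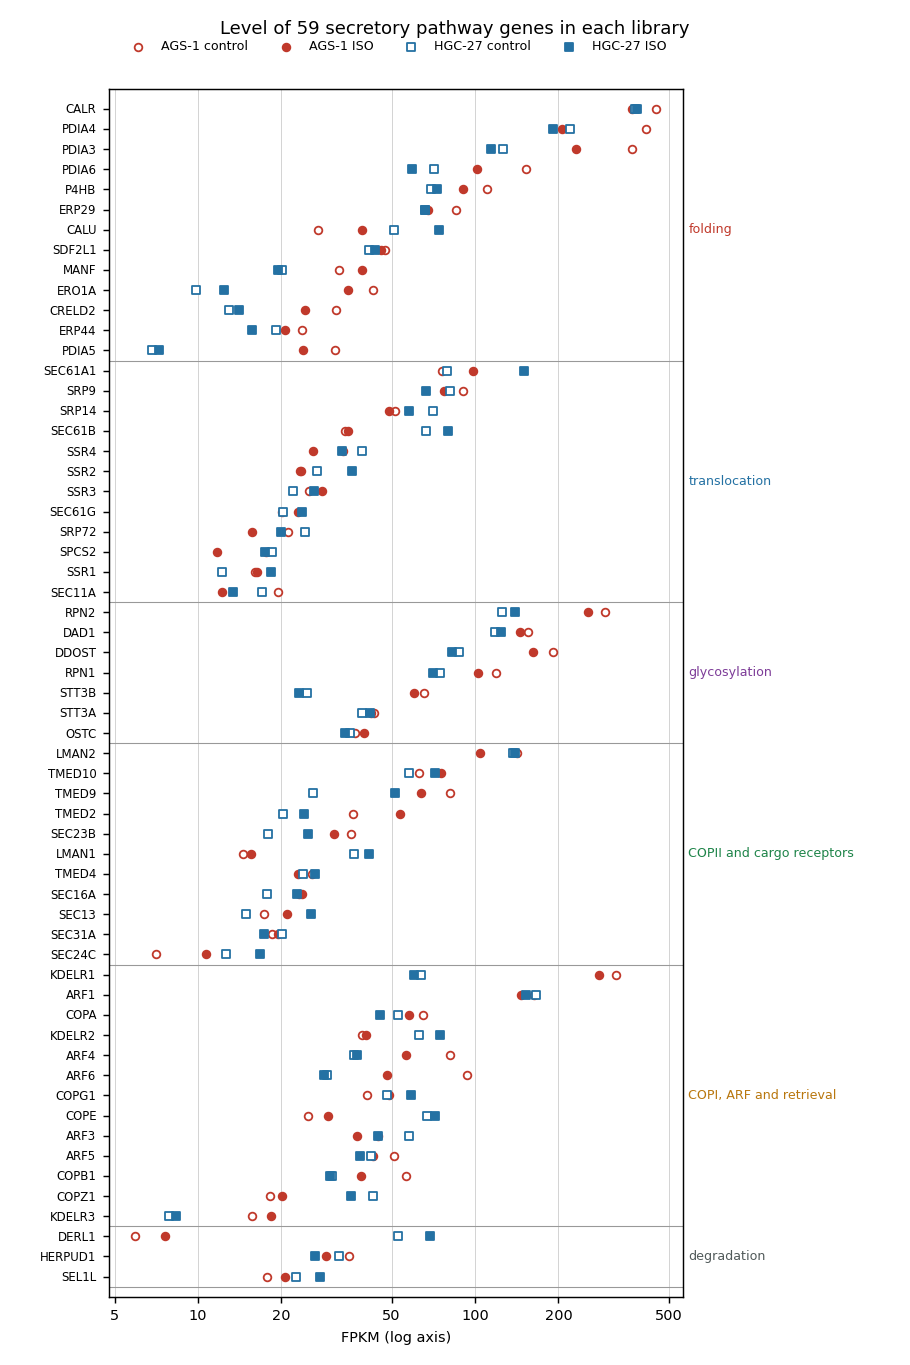
FPKM of the 59 genes (log axis) in the AGS-1 control (open circles), AGS-1 with ISO (filled circles), the HGC-27 control (open squares) and HGC-27 with ISO (filled squares), grouped by role and ordered by mean level. CALR lies highest, with 452 FPKM in the AGS-1 control, and DERL1 shows the widest gap between the lines.

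ISO was compared with the control in each cell line by the log2 ratio of FPKM + 1. With 1 library per condition there is no spread between replicates, no test was made within a line, and each standard error (SE) covers counting error only. In bulk RNA, fewer cells that express a gene and less of its RNA per cell cannot be told apart. In AGS-1, 1 of the 59 genes, PDIA4, fell at least 2-fold and 0 rose that far (1.69% of the genes), against 7.49% of all genes past 2-fold in either direction. In HGC-27, 0 of the 59 changed 2-fold, against 1.49% of all genes. The median ratio of the 59 genes stood at −0.15 in AGS-1 against 0.06 in HGC-27, beside −0.29 and −0.11 over all genes. Of the 59 genes 42 lay above the median of all genes in AGS-1 (71.2%) and 43 in HGC-27 (72.9%). The ratios as deposited carry the shift of all genes, and the part that the mitochondrial share and the fragments outside the table have in it was not tested. With median-of-ratios scaling the median over all genes became −0.03 and −0.05 (AGS-1, then HGC-27), while that of the 59 genes became 0.11 and 0.12.

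The ratios were above 0 in both lines for 19 of the 59 genes and below 0 in both for 22. Another 14 were below 0 in AGS-1 but above 0 in HGC-27, and 4 the reverse. Over all genes 375 were above 0 in both lines and 1619 below. In AGS-1 2272 of the 2883 genes lay below 0, and in HGC-27 1852 did, so that a count below 0 is read against those numbers. With median-of-ratios scaling 1325 of the 2883 genes lay above 0 in AGS-1 and 1243 in HGC-27. Upper-quartile scaling put 1739 and 1566 above 0. Across the 59 genes, which are not independent replicates, Pearson's r between the ratios of the lines was 0.49 and Spearman's rho 0.53, beside 0.36 and 0.38 across the 2883 genes.

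**Figure D2:**
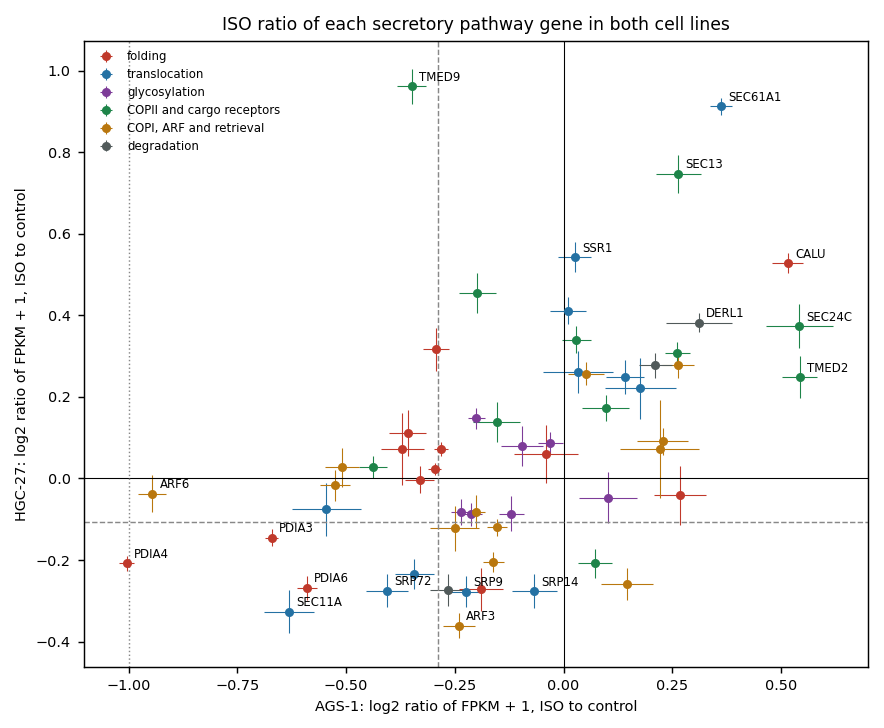
Log2 ratio of FPKM + 1, ISO to control, in AGS-1 (horizontal) against HGC-27 (vertical), 1 point per gene coloured by role, with bars of 1 counting SE. Dashed lines mark the medians of all genes (−0.29 and −0.11) and the dotted line a 2-fold fall, which PDIA4 alone crosses at −1.0, while SEC61A1 and SEC13 lie at the upper right and TMED9 at the upper left.

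Protein folding genes had the lowest median of the roles in AGS-1, close to that of all genes (−0.29). The median ratio of the 13 genes was −0.30 in AGS-1, where 11 lay below 0, and 0.02 in HGC-27, where 6 did. Only 5 of the 13 lay above the median of all genes in AGS-1. Protein disulfide isomerases form and rearrange the disulfide bonds of folding proteins, and all 5 of them (PDIA3, PDIA4, PDIA5, PDIA6 and P4HB) had ratios below 0 in AGS-1. This held with median-of-ratios scaling, whereas with upper-quartile scaling 2 of the 5 lay above 0, beside 1739 of the 2883 genes tested.

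PDIA4 (ENSG00000155660, chromosome 7, 149003062 to 149028662, in GRCh38 coordinates of the table as for the genes below) had 413 FPKM in untreated and 206 FPKM in treated AGS-1, and 221 and 191 FPKM in HGC-27. The AGS-1 control was the highest library and the other 3 lay close together. This gave a log2 ratio of −1.0 in AGS-1 (counting SE 0.0171), just past the 2-fold limit, and −0.21 in HGC-27. With median-of-ratios scaling the ratio in AGS-1 was −0.73, short of 2-fold. ARF6, the next lowest of the 59 genes, stood just short of the limit at −0.95.

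PDIA3, which works with calreticulin on glycoproteins, had 370 and 232 FPKM in AGS-1 and 126 and 114 FPKM in HGC-27. PDIA6 had 153 and 101 FPKM in AGS-1 and 71.4 and 59.1 FPKM in HGC-27. The log2 ratios, −0.67 and −0.59 in AGS-1 against −0.15 and −0.27 in HGC-27, were below 0 for both genes in both lines, but PDIA3 in HGC-27 stood at 0.0042 with upper-quartile scaling. The smaller ratios of P4HB (−0.28, then 0.07) and PDIA5 (−0.37, then 0.07) differed in sign between the lines.

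CALU, a calcium-binding protein of the secretory pathway, stood at the other end of the folding group. It had 27.1 FPKM in untreated and 39.1 FPKM in treated AGS-1, and 51.0 and 74.1 FPKM in HGC-27. Its log2 ratio, 0.52 in AGS-1 (counting SE 0.0363) and 0.53 in HGC-27 (counting SE 0.024), placed it above 97.0% and 96.9% of all genes. ERO1A, the oxidase that recharges disulfide isomerases, had 42.9 and 34.8 FPKM in AGS-1 and 9.80 and 12.4 FPKM in HGC-27. MANF, a secreted stress-responsive factor, had ratios of 0.27 and −0.04, and SDF2L1 had −0.04 and 0.06.

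Promoter sequence bears on this group because the unfolded protein response acts through short elements near the start of its target genes. RefSeq promoters (GRCh38.p14, 250 bases before to 50 after the start) were found for 51 of the 59 genes, and ARF4, DERL1, KDELR2, PDIA3, RPN1, STT3B, TMED4 and TMED9 had none. The ER stress response element, CCAAT and CCACG separated by 9 bases, was searched on both strands. It was in 2 of the 51 promoters (3.92%) and in 22 of 27305 promoters of all genes (0.0806%). Among the other genes of the table it was in 5 of 2192 promoters (0.228%). Both genes are folding factors, and in both the element lies on the strand opposite to the gene, so that the printed strand reads CGTGG and ATTGG, in capitals. The match in CALR runs from position −225 to −207 counted from the RefSeq start, and that in CRELD2 from −80 to −62. The printed stretches, with 15 flanking bases on each side, are chr19:12938369-12938417 and chr22:49918539-49918587, both on the plus strand. That of CRELD2 lies inside the gene by the table's coordinates, which start at 49918167.

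CALR: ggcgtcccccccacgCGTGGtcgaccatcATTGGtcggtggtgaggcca
CRELD2: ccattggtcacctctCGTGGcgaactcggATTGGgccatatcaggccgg

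CALR had a log2 ratio of −0.30 in AGS-1 beside 0.02 in HGC-27, and that of CRELD2 was −0.36 and 0.11. CRELD2, itself a target of ER stress, had 31.5 and 24.3 FPKM in AGS-1 and 12.9 and 14.0 FPKM in HGC-27. Both genes were lower with ISO in AGS-1 as deposited and within 0.12 of 0 in HGC-27. With upper-quartile scaling both ratios in AGS-1 were above 0 (0.13 and 0.05), where the median over all genes was 0.095.

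Among the genes of translocation into the ER, those of the channel and its partner proteins lay mostly above 0. The 12 genes split evenly, with 6 above 0 in both lines and 6 below 0 in both. All 3 measured subunits of the SEC61 channel lay above 0 in both lines, also with scaling by the median of ratios or the upper quartile, and so did SSR1, SSR2 and SSR3 of the translocon-associated complex. The fourth member of that complex, SSR4, had ratios of −0.34 and −0.23.

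SEC61A1 (ENSG00000058262, chromosome 3, 128051641 to 128071683), which forms the channel itself, had 76.2 FPKM in untreated and 98.2 FPKM in treated AGS-1, and 79.1 and 150 FPKM in HGC-27. The control values of the lines were close, and both ISO libraries lay above both controls. Log2 ratios stood at 0.36 in AGS-1 (counting SE 0.0259) and 0.91 in HGC-27 (counting SE 0.0214), 1.28-fold and 1.88-fold. SEC61B and SEC61G, the small subunits, had ratios of 0.03 and 0.18 in AGS-1 against 0.26 and 0.22 in HGC-27. SSR1 had 16.1 and 16.4 FPKM in AGS-1 and 12.2 and 18.3 FPKM in HGC-27, ratios of 0.03 and 0.54.

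The genes below 0, apart from SSR4, act before or after the channel. SRP9, SRP14 and SRP72, proteins of the signal recognition particle, had ratios of −0.22, −0.07 and −0.41 in AGS-1, against −0.28 each in HGC-27. With median-of-ratios scaling 2 of these 3 were above 0 in AGS-1 but 0 in HGC-27, beside 1325 and 1243 of the 2883 genes. SEC11A, a catalytic subunit of the signal peptidase that removes the signal, had 19.4 FPKM in untreated and 12.2 FPKM in treated AGS-1, and 17.1 and 13.4 FPKM in HGC-27. Its ratios were −0.63 (counting SE 0.0569) and −0.33 (counting SE 0.0525). SPCS2 of the same peptidase had −0.55 and −0.08.

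Subunits of the oligosaccharyltransferase, which attaches N-glycans to entering proteins, had the narrowest range of ratios of all roles. The 7 ratios ran from −0.24 to 0.10 in AGS-1 and from −0.09 to 0.15 in HGC-27, and all 7 lay above the median of all genes in each line. RPN2, the most abundant, had 295 and 257 FPKM in AGS-1 and 126 and 139 FPKM in HGC-27. The catalytic subunits STT3A and STT3B had ratios of −0.03 and −0.12 in AGS-1, against 0.09 and −0.09 in HGC-27.

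COPII transport and cargo receptors had the highest medians of the large groups. The 11 genes had a median ratio of 0.07 in AGS-1, with 7 above 0, and of 0.31 in HGC-27, with 10 above 0 and SEC31A alone below. With median-of-ratios scaling 9 of the 11 lay above 0 in AGS-1 and 10 in HGC-27, beside 1325 and 1243 of the 2883 genes. SEC13 (ENSG00000157020, chromosome 3, 10293131 to 10321112), a subunit of the outer COPII cage that also belongs to the nuclear pore, had 17.3 and 21.0 FPKM in AGS-1 and 14.9 and 25.7 FPKM in HGC-27. The log2 ratios were 0.26 in AGS-1 (counting SE 0.0512) and 0.75 in HGC-27 (counting SE 0.0466). SEC24C, which selects cargo, had 7.05 and 10.7 FPKM in AGS-1 and 12.7 and 16.7 FPKM in HGC-27, ratios of 0.54 and 0.37. SEC23B had −0.20 and 0.45.

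The p24 proteins of the TMED family carry cargo between the ER and Golgi, and all 4 lay above 0 in HGC-27. TMED2 had 36.4 and 53.5 FPKM in AGS-1 and 20.2 and 24.2 FPKM in HGC-27, ratios of 0.54 and 0.25. TMED10 had ratios of 0.26 and 0.31. TMED9 (ENSG00000184840, chromosome 5, 177592203 to 177597242) had 81.3 FPKM in untreated and 63.6 FPKM in treated AGS-1, and 26.0 and 51.5 FPKM in HGC-27. The libraries of AGS-1 lay above those of HGC-27, and the gap was narrower with ISO. Its ratio, −0.35 in AGS-1, reached 0.96 in HGC-27 (counting SE 0.0425), the highest of the 59 genes in that line. LMAN2, a lectin for glycoprotein cargo, had 142 and 104 FPKM in AGS-1 and 137 and 139 FPKM in HGC-27.

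**Figure D3:**
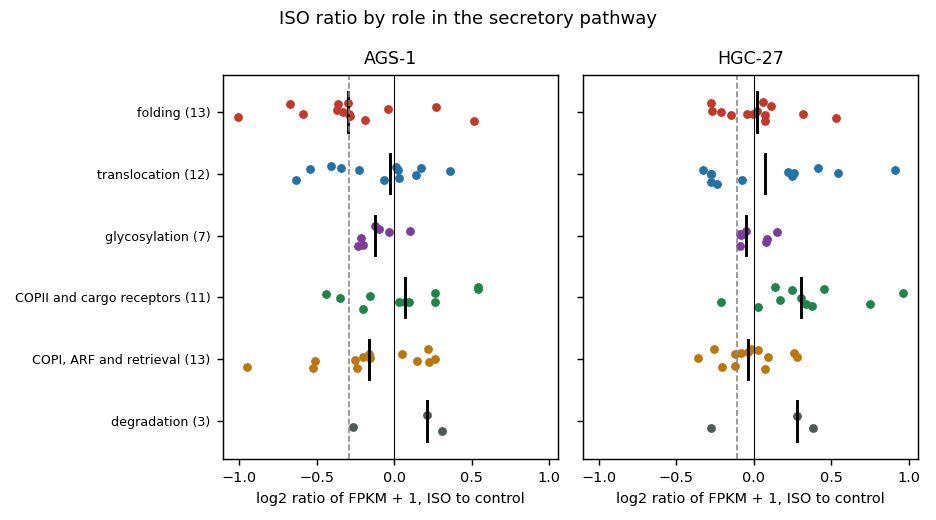
Log2 ratio of FPKM + 1, ISO to control, of each gene (points) by role in AGS-1 (left) and HGC-27 (right), with the median of each role as a black bar, the number of genes in brackets and the median of all genes as a dashed line. Folding genes have a median of −0.30 in AGS-1, and COPII genes and cargo receptors a median of 0.31 in HGC-27.

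The 13 genes of COPI transport and retrieval had a median ratio of −0.16 in AGS-1 against −0.04 in HGC-27, with 5 above 0 in each line. ARF GTPases start the assembly of the COPI coat, and all 5 had ratios below 0 in AGS-1 and 4 of 5 in HGC-27, with medians of −0.25 and −0.12 close to those of all genes. With median-of-ratios scaling 3 of the 5 were above 0 in AGS-1, beside 1325 of the 2883 genes tested. ARF6 (ENSG00000165527, chromosome 14, 49893082 to 49897054), which acts mainly at the plasma membrane, had 93.2 FPKM in untreated and 47.9 FPKM in treated AGS-1, and 29.3 and 28.6 FPKM in HGC-27. Its ratio, −0.95 in AGS-1 (counting SE 0.0329), stood at −0.04 in HGC-27. ARF3 had the lowest ratio of the 59 genes in HGC-27, at −0.36, and −0.24 in AGS-1.

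Within the COPI coat, COPG1 had ratios of 0.26 and 0.28, COPE of 0.23 and 0.09, and COPB1 of −0.53 and −0.02. COPZ1 had 18.1 and 20.2 FPKM in AGS-1 and 43.0 and 35.7 FPKM in HGC-27, ratios of 0.15 and −0.26. KDEL receptors recognise escaped ER residents in the Golgi and return them. KDELR1 had 323 and 281 FPKM in AGS-1 and 64.0 and 60.4 FPKM in HGC-27, ratios of −0.20 and −0.08, and KDELR2 had ratios of 0.05 and 0.26.

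A second element of the unfolded protein response, TGACGTGG, was searched on both strands of the same promoters, again as exact matches only. It shares CGTGG with the opposite strand of the element above, and 0 promoters of the 51 held both. The element was in 5 of the 51 promoters (9.80%) and in 0.795% of all promoters (0.821% for the other genes of the table), and 4 of the 5 genes (ARF1, COPA, COPB1 and KDELR3) belong to the 11 COPI and retrieval genes with a promoter. The other was SEC16A. In COPA and SEC16A the match lies after the RefSeq start and is not printed. The 3 matches before it are shown with the element, or its complement, in capitals. The printed stretches, flanks included, lie at chr1:228082677-228082707 (plus strand) for ARF1, chr11:14499837-14499874 (minus strand) for COPB1 and chr22:38468035-38468072 (plus strand) for KDELR3. The RefSeq start can differ from the start in the table. By the table's coordinates the stretches of ARF1 and COPB1 lie inside the gene. The SEC16A match (chr9:136484718-136484725) lies before the gene, which is on the minus strand and ends at 136483759.

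ARF1: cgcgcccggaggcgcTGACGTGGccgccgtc
COPB1: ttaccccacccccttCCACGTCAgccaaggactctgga
KDELR3: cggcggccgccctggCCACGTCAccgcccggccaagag

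These genes did not share a direction. The ratios were −0.15 for ARF1, −0.16 for COPA, −0.53 for COPB1, 0.22 for KDELR3 and 0.03 for SEC16A in AGS-1, and −0.12, −0.20, −0.02, 0.07 and 0.34 in HGC-27.

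ER-associated degradation was represented by 3 genes. DERL1, a part of the channel through which proteins leave the ER, had 5.94 and 7.61 FPKM in AGS-1 and 52.6 and 68.8 FPKM in HGC-27, ratios of 0.31 and 0.38. SEL1L, the partner of the main ubiquitin ligase, had ratios of 0.21 and 0.28. HERPUD1, a target of ER stress, had 35.0 and 28.9 FPKM in AGS-1 and 32.2 and 26.5 FPKM in HGC-27, ratios of −0.27 in both lines.

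A change common to both lines was sought by limma over 2883 genes, on log2(FPKM + 1), with the cell line in the model, so that each line served as 1 replicate of the treatment. No gene of the 59 passed an adjusted p of 0.05 (0 called, lowest adjusted p 0.181 by limma), against 0.937% of all genes. An unadjusted p under 0.05 was found for 4 of the 59, 3 higher and 1 lower, beside 64 higher and 514 lower of all genes (20.0% together). With median-of-ratios scaling the number was 12, all higher, beside 202 higher and 309 lower of all genes (17.7% together). Upper-quartile scaling gave 18, all higher, beside 341 higher and 161 lower (17.4% together). SEC61A1 had a shared log2 change of 0.64 (SE 0.241), CALU of 0.52 (SE 0.202) and SEC13 of 0.51 (SE 0.198), each higher in both lines, and SEC11A of −0.48 (SE 0.199), lower in both. Their adjusted p-values by limma were 0.181, 0.188, 0.193 and 0.219. With voom weights on the recovered fragments 0 of the 59 were called and 7 had an unadjusted p under 0.05, beside 22.5% of all genes. The test has 1 residual degree of freedom.

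Other genes of the pathway came from lists written by hand. Of 19 genes of the unfolded protein response 8 were measured, with median ratios of −0.15 and −0.07 in the lines, and 0 passed the shared test. HSPA5, the ER chaperone BiP, had 297 and 267 FPKM in AGS-1 and 122 and 141 FPKM in HGC-27, ratios of −0.15 and 0.20. HSP90B1, the ER form of HSP90, fell past 2-fold in AGS-1 as deposited, from 252 to 117 FPKM (ratio −1.10). In HGC-27 it went from 40.8 to 35.9 FPKM. Its ratio with other scalings is not given here, and median-of-ratios scaling moved PDIA4 in AGS-1 from −1.0 to −0.73. Among the transcription factors of the response, XBP1 had ratios of −0.02 and 0.32, ATF4 of −0.15 and 0.04, and DDIT3 of 0.46 and −0.55. TRIB3, a target of ATF4 and DDIT3, fell from 13.2 to 2.82 FPKM in AGS-1 (ratio −1.89) and went from 118 to 80.0 FPKM in HGC-27 (ratio −0.55), with an adjusted p of 0.0510 by limma for the shared change.

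Among the other lists, 8 of 14 further genes of ER-associated degradation were measured, with median ratios of −0.01 and 0.38, and all 8 lay above the median of all genes in each line. The 13 measured genes of ER to Golgi transport (of 29) had medians of −0.01 and 0.14. The 16 of other folding and glycan genes (of 24) had −0.17 and −0.07, and the 8 of other membrane targeting (of 19) −0.24 and −0.08. The 10 measured genes of lysosome and later transport (of 13) had −0.19 and 0.03. CLTB, a clathrin light chain, fell past 2-fold in AGS-1 as deposited, from 178 to 67.5 FPKM (ratio −1.39). Its ratio with other scalings is not given here. In each list 0 genes passed the shared test.

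More of these genes separated the cell lines than the treatments. The same held over all genes, with 1639 called between the lines and 27 for the shared ISO change. Between AGS-1 and HGC-27, tested with limma over the same 4 libraries with the treatment in the model, 26 of the 59 genes (44.1%) had an adjusted p under 0.05 and were called different, against 56.9% of all genes. The lines also differed in the epithelial markers above, whose part in these differences was not tested, and the libraries of a line differ in treatment. Of the 26, 18 were higher in AGS-1 (69.2%), the other 8 in HGC-27, and of the genes called over all 2883, 928 were higher in AGS-1 (56.6%) and 711 in HGC-27. Across the 59 genes Pearson's r between the control levels of the lines, on the log2(FPKM + 1) scale, was 0.75, beside 0.27 across the 2883 genes.

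DERL1 had the widest difference. All values in HGC-27 (52.6 and 68.8 FPKM) lay far above those in AGS-1 (5.94 and 7.61 FPKM), a log2 difference of −2.98 for AGS-1 minus HGC-27 (SE 0.185, adjusted p 1.59e-08 by limma). KDELR1 was 4.79-fold higher in AGS-1 on the log2(FPKM + 1) scale (log2 difference 2.26, SE 0.241, adjusted p 4.21e-06 by limma). The other KDEL receptors differed too. KDELR3 was 1.98-fold higher in AGS-1, with 15.6 and 18.4 FPKM against 7.87 and 8.33 FPKM, and KDELR2 was 1.70-fold higher in HGC-27 (adjusted p 0.00174 and 0.00720 by limma).

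Of the 13 folding genes 6 were called higher in AGS-1, 6 were not called and CALU was called higher in HGC-27, by 1.86-fold. PDIA5 was 3.53-fold and ERO1A 3.29-fold higher in AGS-1, and PDIA3 2.43-fold. Of the oligosaccharyltransferase subunits 4 of 7 were called, each higher in AGS-1. STT3B, the catalytic subunit that acts largely after translocation, was 2.55-fold higher (log2 difference 1.35, SE 0.197, adjusted p 7.43e-05 by limma), whereas its counterpart STT3A had a difference of 0.08 (SE 0.200, adjusted p 0.759 by limma). DDOST was 2.06-fold and RPN2 2.07-fold higher in AGS-1.

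The genes higher in HGC-27 came from several steps. LMAN1, the cargo receptor for several glycoproteins, had 36.6 and 41.4 FPKM there against 14.5 and 15.6 FPKM in AGS-1, a 2.49-fold difference. COPE was 2.50-fold, COPZ1 2.0-fold and SEC61B 2.09-fold higher in HGC-27, while SEC61A1 and SEC61G were not called. SEC61B was the only call among the 12 translocation genes. With the treatment left out of the model 21 of the 26 were called, while the calls over all genes went from 1639 to 1182. Fits without 1 library also left the treatment out and kept 1 library of a line, so that only differences are given. KDELR1 then differed by 2.16 and 2.36 (without the AGS-1 control, then the AGS-1 ISO library). Without the HGC-27 control it differed by 2.30, and without the HGC-27 ISO library by 2.22. For TMED9, at 0.95 with all libraries, the differences in the same order were 0.78, 1.13, 0.47 and 1.43. Upper-quartile scaling gave 16 calls higher in AGS-1 and 18 higher in HGC-27, and over all genes 797 and 1047 (43.2% higher in AGS-1).

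**Figure D4:**
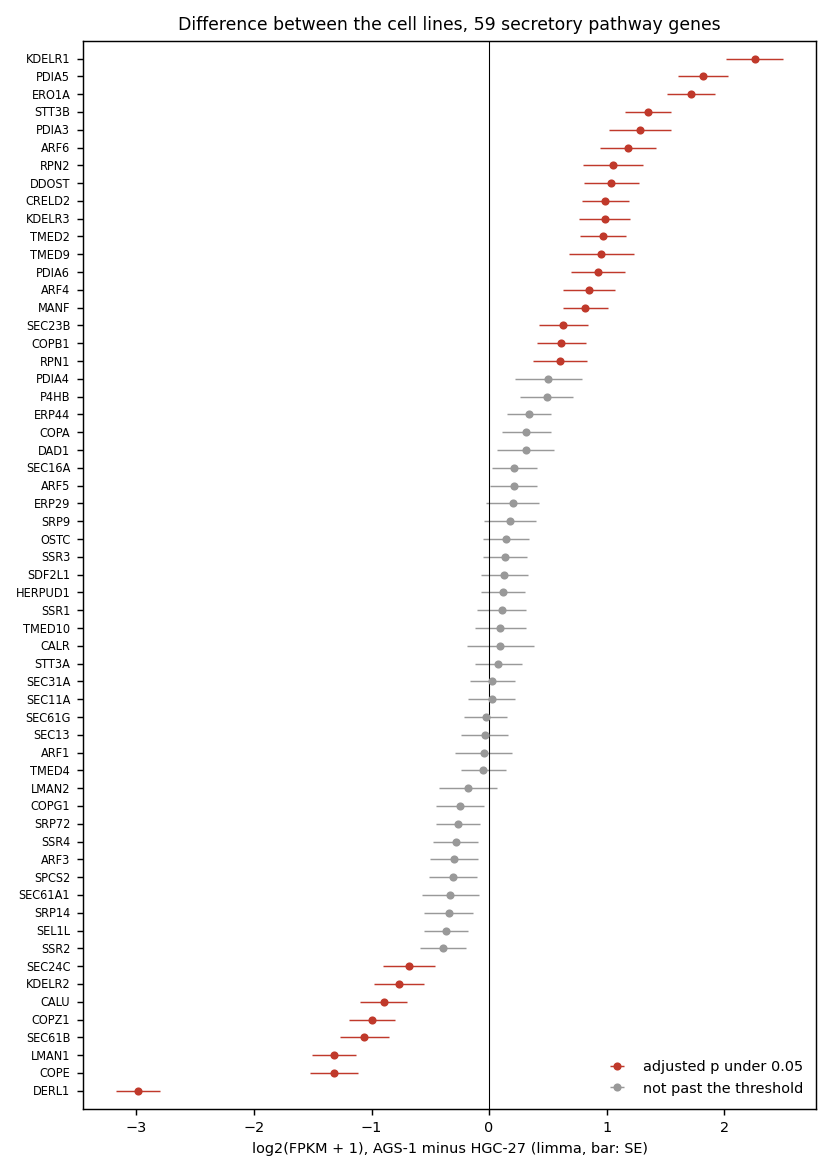
Difference in log2(FPKM + 1) between AGS-1 and HGC-27 for the 59 genes (points, limma estimate over 4 libraries) with bars of 1 SE, red where the adjusted p was under 0.05 and grey elsewhere. Of the 26 red genes 18 lie to the right, KDELR1 farthest at 2.26, and 8 to the left, DERL1 farthest at −2.98.

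Some of these genes share sequence with others. In GENCODE 29, 13 of the 59 had pseudogenes named after them, among them OSTC with 6, ARF4, SPCS2 and SRP14 with 4 each and ARF1 with 3. How fragments were divided between such copies, or among the related ARF and KDELR genes, is not given in the sources used here, and the values of these genes are uncertain to that degree.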

How the data were processed

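Total RNA of the 4 cultures was made into mRNA-seq libraries by the authors and sequenced on an Illumina NextSeq. The submitters' processing notes name CASAVA 1.8, HISAT2 and GRCh38. The counting tool, the annotation and the choice of the 2897 genes are not given in the sources used here. The authors deposited FPKM values, 1 column per library. Multiplied by gene length, 100% of the FPKM values came out as whole fragments (within 0.05), and these fragments served for depth and counting errors.

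Ratios were log2 of FPKM + 1, which understates changes of low genes, with the deposited scaling, and a change counted from 2-fold on. The limma 3.58.1 test (R 4.3.3, eBayes with trend) used log2(FPKM + 1) of genes averaging 1 FPKM or more, with Benjamini-Hochberg adjustment. On simulated data with 200 genes changed 4-fold, 6.54% of the calls for ISO and 8.68% of those between the lines were false. Those data held the same ISO change in both lines, which the real data need not. The cell line pairs each control with its ISO library, and the fit has the line as a block. No label says that the libraries came from separate experiments. With 1 library per condition, the spread behind the p-values of this fit is how unlike the ISO change was in the 2 lines, shrunk toward the trend over genes. It is not a spread between cultures of 1 condition.

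The members, lists and roles were chosen with earlier results of these data known. The genes named were those changed 2-fold, the 5 largest rises and falls in each line, the 5 highest levels, the 5 largest differences between the lines in each direction and the highest of each role, which gave 28 genes, and beyond them HSPA5, HSP90B1, XBP1, ATF4, DDIT3 and list genes changed 2-fold. Further genes given for a family, a promoter match or a difference between the lines were chosen after their values were seen. Identifiers of all 59 genes were found in GENCODE 29 with the same symbol. Promoter sequences came from RefSeq. Protein sequences were not used here. Python 3.11.15 with numpy 2.4.6 and pandas 2.3.3 was used for the rest. Alternatives were pseudocounts of 0.1 and 5, median-of-ratios and upper-quartile scaling, filters on low values, voom and models without the block. Fits of the cell lines without each library also left the treatment out of the model.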

Additional observations from a re-analysis of the deposited data

Results flagged for a closer look

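Of the 59 genes, the named genes of the unfolded protein response and the median, those below were picked out because the ratio had opposite signs in the cell lines, for single genes with each ratio beyond 2 counting SE. With 1 library per condition the difference between the lines was not tested. Given for AGS-1 and then HGC-27, the log2 ratios of TMED9 were −0.35 and 0.96. ERO1A had −0.29 and 0.32, and RPN2 −0.20 and 0.15. SEC23B had −0.20 and 0.45, P4HB −0.28 and 0.073, and TMED4 −0.15 and 0.14. COPZ1 had the reverse order, with 0.15 and −0.26. Among the genes of the unfolded protein response, HSPA5 had −0.15 and 0.20, and DDIT3 0.46 and −0.55. The median of the 59 genes was −0.15 and 0.060.

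With median-of-ratios scaling the signs still differed for TMED9 (−0.07 and 1.03), ERO1A (−0.02 and 0.38), COPZ1 (0.41 and −0.20) and DDIT3 (0.73 and −0.49). They also differed for P4HB, which was near 0 in AGS-1 (−0.0055 and 0.14). They no longer differed for RPN2 (0.08 and 0.21), SEC23B (0.07 and 0.52), TMED4 (0.11 and 0.20), HSPA5 (0.12 and 0.27) and the median of the 59 genes (0.11 and 0.12). With upper-quartile scaling TMED9 (0.07 and 1.11), ERO1A (0.12 and 0.46) and P4HB (0.14 and 0.22) were above 0 in both lines. The medians over all genes were then 0.095 and 0.03.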

How the results depend on the processing

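Scaling moved the results within a line most. The median ratio of the 59 genes in AGS-1 went from −0.15 to 0.11 with median-of-ratios and 0.25 with upper-quartile scaling. In HGC-27 it went from 0.06 to 0.21 with upper-quartile scaling. The median over all genes moved as well, in AGS-1 from −0.29 to −0.03 and 0.095 with the same scalings. In HGC-27 the median over all genes went from −0.11 to 0.03 with upper-quartile scaling. The count changed 2-fold in AGS-1 was 1 as deposited and 0 with either scaling and with a pseudocount of 5. Over all genes it went from 216 to 122 with median-of-ratios scaling, 105 with upper-quartile scaling and 156 with that pseudocount. In HGC-27 the count among the 59 genes was 0 as deposited, 1 with median-of-ratios scaling (TMED9) and 2 with upper-quartile scaling (TMED9 and SEC61A1). Over all genes it was 43, 44 and 41 in the same order. The cause was not tested beyond the scaling itself. The shared ISO change gave 0 calls among the 59 genes under each alternative, with lowest adjusted p-values between 0.123 and 1.00 by limma, while the calls over all genes ranged from 0 to 208 beside 27 as reported. Leaving out a cell line leaves the ratio of the other line, given in the report, and no test. Between the lines the calls were 26, and 21 of these without the replicate block (the treatment left out of the model). Leaving out 1 library gave 5 to 23 calls. Each of these fits also gave fewer calls over all genes than the 1639 of the fit with all libraries. Each kept 1 library of a line and left the treatment out. What part of the drop is particular to the 59 genes was not tested. Of the calls between the lines with all libraries, 69.2% were higher in AGS-1 as deposited and 47.1% with upper-quartile scaling, beside 56.6% and 43.2% over all genes. Under these alternatives 0 of the recomputed results that were called changed sign. Without the block for the cell line the shared change gave 0 calls. With 1 library per condition, depth limits only the counting error, and the spread between cultures is unknown.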
